A study of Mus musculus with 6 samples.

Results

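Cycling lymphocytes were taken from 6 libraries of mouse splenocytes as cells with at least 1 UMI (a counted unique molecule) of both Mki67 and Top2a, which are made by cells that copy and divide their genome. A cycling B cell also held at least 2 Cd79a UMIs and 0 of Cd3e and Cd3d, and a cycling T cell at least 1 UMI of Cd3e or Cd3d and at most 1 of Cd79a. Both had 0 UMIs of Klf1 (erythroid) and Csf1r (macrophage) and fewer than 5 of Jchain (plasma cell). The gate found 170 cells among 31457, of which 107 were B cells and 63 were T cells. The cells were thus chosen by measured values of these genes, so their levels are no finding, and neither is the rise of the cell cycle genes that travel with them.

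The spleens came from C57BL/6 mice of genotype WT that were 6 weeks old when they were put on ND or on MCDHFD, the diet of a MASH model, for 7 weeks. Each diet has 3 libraries, and nothing in the labels says whether each one is a separate mouse, so p-values measure the spread between these libraries. The sample titles shorten the second diet to MCD and the growth protocol spells it MCDHFD. The labels name no transgene, drug or sort, and the libraries were made with 10x Genomics 3.1 chemistry from whole splenocyte suspensions.

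Resting lymphocytes sit outside the cell cycle and enter it after antigen and helper signals. B cells then divide fastest in the dark zone of germinal centres and return to the light zone to be selected. T cells that divide lose the genes of the naive state (Ccr7, Il7r, Lef1, Tcf7) and take up those of activated, helper or killer cells. Genes of S phase are switched on by E2F factors, and those of G2 and mitosis by the MuvB complex with B-Myb and FoxM1, which binds the motif CHR (cell cycle gene homology region), often with NF-Y on a nearby CCAAT box.

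The libraries held 21259837 to 62238012 UMIs and 3273 to 6606 cells. In 2 libraries, ND replicate 2 and MCDHFD replicate 3, only 3409 and 3807 barcodes were listed, as after a filter. Their headers name another Cell Ranger version than those of the other 4, and their median mitochondrial shares were 0.571% and 1.68% against 3.73 to 3.96%. Each diet has 1 of these, so values are given within each form of list where they bear on a result. One of the 170 barcodes was also kept in another library, and 0 were shared between cycling cells. Scrublet predicted 0 of the 170 as doublets. It called 0 cells of any kind in the 2 filtered lists, where 42 and 9 of the 170 lay, so its 0 says nothing there.

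The label did not hold for every cell. Among the 63 cycling T cells, 16 held 658 to 17364 UMIs of 9 neutrophil-lineage genes (Lyz2, S100a8, S100a9, Mpo, Elane, Prtn3, Ngp, Camp and Ltf), and the other 47 held at most 20. Of these 16 myeloid-rich cells, 11 held at most 1 UMI of 7 further T cell genes (Cd3g, Trac, Trbc1, Trbc2, Thy1, Cd2 and Lat) and 5 held at least 10. The other 47 held a median of 58 such UMIs and no fewer than 3. Among the 107 cycling B cells, 10 held 109 to 15214 neutrophil-lineage UMIs, and the other 97 held at most 22. ND replicates 1 to 3 held 10, 2 and 3 of the myeloid-rich T cells, and ND replicates 1 and 2 held 3 and 6 of the B cells. MCDHFD replicate 1 held 1 of each. Since 24 of these 26 cells came from ND, results are given with and without them, and gene values are given without them. Of the rest, 4 of 97 B cells and 3 of 47 T cells held UMIs of natural killer cell genes, and megakaryocyte genes were at 0 in both.

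**Figure D1:**
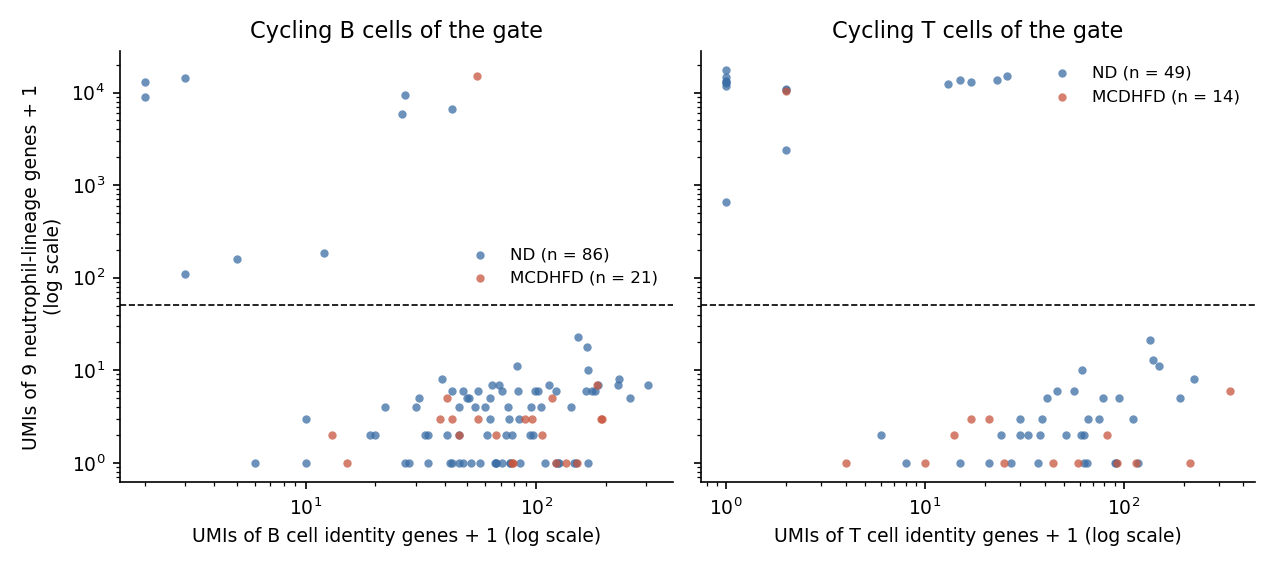
UMIs of 9 neutrophil-lineage genes (vertical axis, plus 1, log scale) against UMIs of the cell's own lineage genes (horizontal axis, plus 1, log scale) in the 107 B and 63 T cells of the gate, 1 point per cell, coloured by diet. The dashed line is the limit of 50 UMIs: 10 B and 16 T cells lie above it, most of them from ND.

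The depth of the gate was read from 6 cell cycle genes it did not use (Birc5, Ube2c, Cdk1, Ccna2, Pclaf and Rrm2). At least 3 of them were seen in 86.1% of the 79 B cells with 2 or more UMIs of both gate genes, but in 15.4% of the 13 B cells with exactly 1 of each. Just outside the gate, 3.21% of the 156 B cells with Mki67 alone and 1.47% of the 273 with Top2a alone passed this count, and 0.0138% of the 14544 with neither. In T cells the shares were 93.9% of 49 cells, 0 of 6 cells, 3.25% of 123, 0 of 200 and 0.0137% of 7309. Within the gate, the other cycle genes were thus seen least often at its edge. The cells with exactly 1 UMI of each gate gene were also shallower than those with 2 or more of both. Their medians were 8026 against 19154 UMIs in B cells and 10117.5 against 23706 in T cells. The part of depth in these shares was not tested, and the myeloid-rich cells were counted.

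The promoters of some of these genes are shown because G2/M and S phase genes differ in how often they hold these motifs. Each run is the 150 bases before the transcription start on the coding strand, in mouse build GRCm38.p6, from RefSeq. Capitals mark the CHR motif (TTTGAA or TTCGAA), the CCAAT box (CCAAT) and the E2F motif (TTTCCCGC, TTTCGCGC, TTTGCCGC or TTTGGCGC) on either strand, and overlapping matches run together. Ube2c lies at chr2:164769779-164769928 (+ strand), Cdk1 at chr10:69352913-69353062 (- strand), Mcm5 at chr8:75109359-75109508 (+ strand) and Mcm6 at chr1:128359706-128359855 (- strand). The first pair act in G2 and mitosis, and the last pair are subunits of the replicative helicase.
Ube2c: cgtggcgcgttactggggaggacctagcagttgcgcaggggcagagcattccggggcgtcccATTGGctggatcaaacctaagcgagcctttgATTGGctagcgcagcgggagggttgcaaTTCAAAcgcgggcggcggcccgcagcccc
Cdk1: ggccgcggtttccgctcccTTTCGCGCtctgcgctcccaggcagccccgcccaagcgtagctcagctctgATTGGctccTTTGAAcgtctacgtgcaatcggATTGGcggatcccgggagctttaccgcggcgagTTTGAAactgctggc
Mcm5: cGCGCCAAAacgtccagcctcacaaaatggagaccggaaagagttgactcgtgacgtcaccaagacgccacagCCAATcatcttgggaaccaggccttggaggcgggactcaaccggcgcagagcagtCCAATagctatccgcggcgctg
Mcm6: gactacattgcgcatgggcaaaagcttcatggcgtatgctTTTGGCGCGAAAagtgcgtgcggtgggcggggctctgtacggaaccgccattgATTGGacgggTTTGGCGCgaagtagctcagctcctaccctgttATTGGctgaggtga

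Windows of 300 bases, from 250 before to 50 after the start, were searched for all genes in the table. A CHR motif was found in 26 of 35 matched G2/M genes (74.3%), in 5 of 27 S phase genes (18.5%) and in 21.7% of all 27025 genes. The E2F motif was found in 13 of 27 S phase genes (48.1%), in 1 of 35 G2/M genes (2.86%) and in 2.60% of all genes. The CCAAT box was found in 77.1% of the G2/M and 63.0% of the S phase genes, against 41.1% of all. Both CHR and CCAAT lay in 23 of 35 G2/M genes (65.7%) and in 8.61% of all genes. Of 12 matched germinal centre genes, 5 held a CHR motif (41.7%) and 1 an E2F motif. A match describes the letters only.

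The share of cycling cells was lower on MCDHFD in both lineages, a comparison that asks whether fewer lymphocytes divide on that diet. Cycling cells made up 0.955%, 1.65% and 0.681% of the B cells on ND, and 0.227%, 0.416% and 0.327% on MCDHFD (replicates 1 to 3 in this order, here and below). All 3 ND shares lay above all 3 MCDHFD shares. The means were 1.09% ± 0.498 and 0.323% ± 0.0944 (SD, n = 3 each), 3.38 times higher on ND. In T cells the shares were 1.95%, 1.69% and 1.25% on ND and 0.113%, 0.421% and 0.383% on MCDHFD, again without overlap. The means were 1.63% ± 0.356 and 0.306% ± 0.168 (SD, n = 3 each), 5.33 times higher on ND. A two-sided exact permutation test gave p = 0.1 for each lineage, the smallest that 3 against 3 can give.

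Without the myeloid-rich cells the difference was smaller and the diets still did not overlap. B cell shares were then 0.882%, 1.32% and 0.683% against 0.190%, 0.418% and 0.328%, a ratio of means of 3.08. T cell shares were 1.17%, 1.45% and 0.948% against 0.0572%, 0.425% and 0.388%, a ratio of 4.10, with exact permutation p = 0.1 in both. Within the libraries with unfiltered lists the ratio of means was 2.57 in B cells and 4.40 in T cells, and within the pair with filtered lists 4.04 and 3.73. After each cell was thinned to 3000 UMIs, with shallower cells left out, the means were 0.554% against 0.133% in B cells and 0.709% against 0.210% in T cells, without overlap. The depth behind these shares was 760 to 3856 cells for each ND and 1219 to 2631 for each MCDHFD library, and MCDHFD replicate 1 held 1 cycling T cell among 1749.

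**Figure D2:**
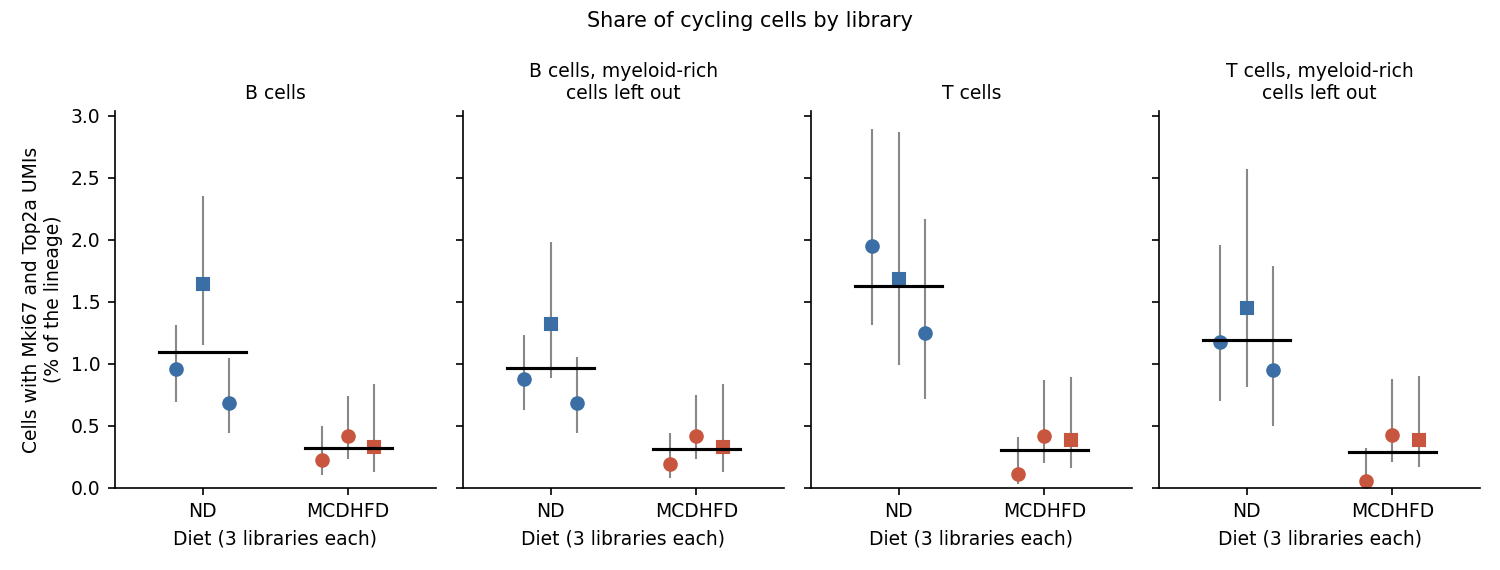
Share of cells in the gate (vertical axis, % of the B or T cells) by diet, with and without myeloid-rich cells, 1 point per library with its 95% Wilson interval (counting error only) and a line at the mean. Squares are the libraries with filtered barcode lists. In all 4 panels the 3 ND points lie above the 3 MCDHFD points.

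Cells outside both lineages also had a lower mean share on MCDHFD, with overlap between the diets: 10.9%, 9.96% and 5.41% on ND and 2.64%, 1.73% and 5.70% on MCDHFD held both gate genes (8.75% ± 2.93 against 3.36% ± 2.08, SD, n = 3 each, exact permutation p = 0.2). The log2 difference in B cells exceeded that of these cells by -0.15 (exact permutation p = 0.9) and that in T cells by -0.97 (exact permutation p = 0.5). The lower share was therefore not shown to be particular to lymphocytes. T cells cycled more often than B cells in 5 of 6 libraries, by 0.259 percentage points on average, which did not pass an exact sign-flip permutation test (p = 0.28125). Without the myeloid-rich cells the difference was 0.102 points (exact permutation p = 0.21875). Non-cycling T cells also held more UMIs than B cells (median 7010 against 5203), and after thinning of all cells to 3000 UMIs the difference was 0.189 points, higher in T cells in 5 of 6 libraries (exact permutation p = 0.0625). Thinned and without the myeloid-rich cells it was 0.116 points, also higher in 5 of 6 (exact permutation p = 0.09375).

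Among the 47 cycling T cells, CD4 cells outnumbered CD8 cells. A Cd4 UMI without Cd8a or Cd8b1 was found in 25, the reverse in 10, both in 4 and neither in 8. CD8 cells were thus 28.6% of the CD4 or CD8 cells, against 60.1% among non-cycling T cells. The cycling share was lower by 34.4 points on average and lower in all 5 libraries with such cells, with exact permutation p = 0.0625, the smallest for 5 pairs. Of the CD4 T cells, 20 of 955 cycled on ND and 5 of 1379 on MCDHFD, and of the CD8 T cells 9 of 1213 and 1 of 2179. A Foxp3 UMI, the mark of regulatory T cells, was found in 8 of 47 (17.0%), against 7.10% of non-cycling T cells. The 8 cells were all from ND (5, 1 and 2 in replicates 1 to 3), and cycling cells hold more UMIs, so shares with a UMI are not matched on depth. The single cycling T cell left in MCDHFD replicate 1 held 11 Trdc UMIs and 0 of Trac, Cd4 and Cd8a, as gamma delta T cells do.

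The series' title names splenic CD8 T cells high in Trnp1, a gene that rose on MCDHFD by 4.59 on the log2 scale in sums over all T cells (edgeR's quasi-likelihood test, adjusted p = 1.9e-05). Trnp1 was at 0 UMIs in all 47 cycling T cells. Non-cycling T cells held 3.18, 4.94 and 1.90 CPM of Trnp1 (UMIs scaled to a common library total, the unit of all levels below) on ND and 36.6, 57.6 and 180 on MCDHFD, and 21.6%, 31.0% and 53.4% of them held a UMI on MCDHFD. At these levels the 13 cycling T cells of MCDHFD would hold 36.8 Trnp1 UMIs, so with a limit of 3 UMIs for a count of 0 over the group the level was at least 12.3-fold lower. The expected counts were 0.842, 8.67 and 27.3 in MCDHFD replicates 1 to 3, so replicate 3 carries most of the bound. The 5 cycling T cells of that replicate also held 128 UMIs of 5 genes of the exocrine pancreas (842 CPM, against 0 to 6.64 in cycling T cells of the other 5 libraries and 90.4 in non-cycling T cells of the same one), and 2 of them held Cela3b. The B cell identity list stood at 2317 CPM in these 5 cells and at 43.4 to 462 in the other libraries. The part of either in the Trnp1 count was not tested. In ND the 34 cycling T cells would hold 2.19, under that limit, and no fold is given.

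Trnp1 was seen in non-cycling CD4 as well as CD8 cells, and in deep cells. In MCDHFD replicates 1 to 3, Trnp1 stood at 21.5, 28.2 and 171 CPM in CD4 cells and 50.9, 76.1 and 195 CPM in CD8 cells. Non-cycling T cells with at least 12000 UMIs held 38.5, 61.1 and 154 CPM of Trnp1. Syt6, also higher in non-cycling T cells on MCDHFD, was at 0 where 9.03 UMIs would stand, at least 3.01-fold lower. The expected Syt6 counts were 0.459, 4.41 and 4.16 by replicate, so this bound rests on MCDHFD replicates 2 and 3. Fkbp5, which glucocorticoids induce, was in contrast seen in 13 of 13 cycling T cells on MCDHFD and 20 of 34 on ND. Its log2 difference between cycling and non-cycling T cells was 0.23 ± 0.22 (SE), with adjusted p = 0.43 in edgeR's quasi-likelihood test. Counting intervals and limits cover counting error only.

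**Figure D3:**
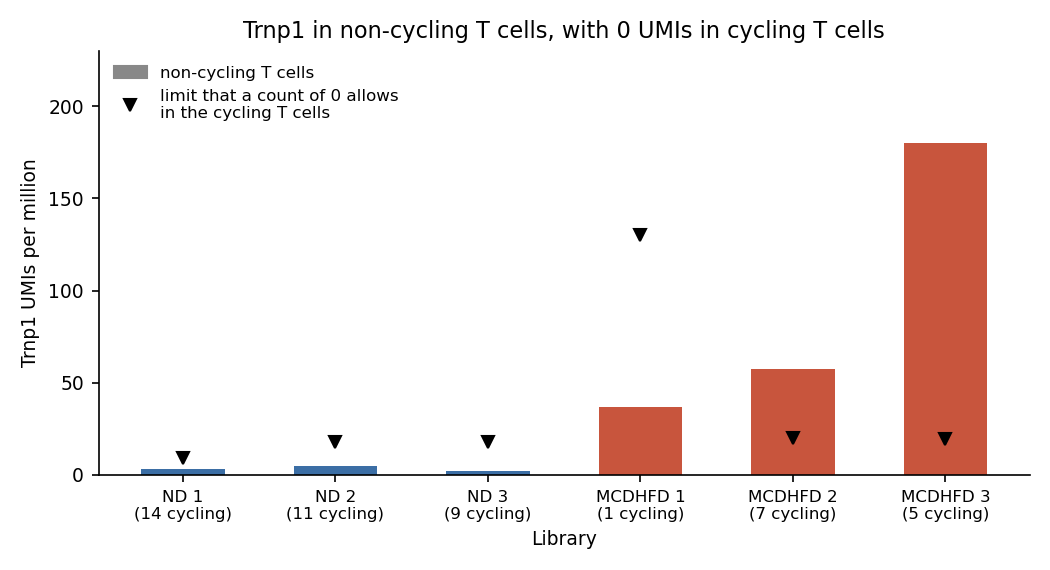
Trnp1 CPM in non-cycling T cells of each library (bars, from 0) and, as triangles, the limit of 3 UMIs that a count of 0 allows in the cycling T cells of that library, whose number stands under its name. In MCDHFD replicates 2 and 3 the limit lies below the non-cycling level, and in the other 4 libraries above it.

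Cycling cells were compared with cells of the same gate, lineage and library that had 0 Mki67 and 0 Top2a UMIs, on UMIs summed per library, with edgeR's quasi-likelihood test and Benjamini-Hochberg adjustment over all genes, a gene passing at adjusted p under 0.05. Without myeloid-rich cells and with all 6 libraries, 17.0% of 11276 genes were higher in cycling B cells and 24.3% were lower. In T cells 12.9% of 11159 genes were higher and 23.4% lower. With all cells of the gate and at least 10 cycling cells per library, 18.2% and 17.7% were higher and lower in B cells (4 libraries) and 16.3% and 17.2% in T cells (the 3 ND libraries). Cycling cells were deep: their median was 17953 UMIs in B and 16195 in T cells. Against non-cycling cells of like UMI number in the same library, 486 genes passed in B and 362 in T cells instead of 4664 and 4047, with fewer reference cells and fewer genes tested.

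The cell cycle lists describe the gate. All 37 S phase genes and all 41 G2/M genes were higher in cycling B cells, with median log2 differences of 3.02 and 5.70 against -0.22 over all genes. In T cells 36 of 37 and 40 of 41 were higher, with medians of 3.00 and 6.69 against -0.32. Pclaf, a clamp-binding protein of S phase, stood at 758, 760 and 725 CPM in cycling B cells of ND and 808, 293 and 740 of MCDHFD, and at no more than 2.07 CPM in non-cycling ones. Foxm1 and Mybl2, the activators of late cycle genes, differed by 4.51 and 5.08 in B cells on the log2 scale. Of the 15 histone and chromatin genes, 14 were higher in B and 15 in T cells.

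Of 22 measured regulators of the cycle, 15 rose and 4 fell in B cells (Btg1, Ccnd3, Cdkn1b and Rbl2). Of all 11276 genes tested, 1921 rose and 2743 fell. Btg1, an antiproliferative gene, fell by 1.69 on the log2 scale in cycling B and by 1.89 in cycling T cells, and Ccnd3, a D cyclin of lymphocytes, fell by 1.78 and 1.84. Cdk4 rose by 1.89 in B cells. Btg1 stood at 194, 340 and 219 CPM in cycling B cells of ND and 213, 221 and 160 of MCDHFD, and at 582 to 796 CPM in non-cycling ones, with no overlap. Ccnd1, another D cyclin, rose by 3.53 in B cells, and its UMIs were all from ND (41.6, 16.1 and 49.1 CPM, and 0 in MCDHFD replicates 1 to 3).

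Genes that make nucleotides rose in 17 of 21 cases in B cells and 10 of 21 in T cells, with 0 lower in both. The list shares members with the S phase list, among them Rrm1, Rrm2 and Tyms, and for these the rise is no finding. Tk1, thymidine kinase, rose by 3.98 and Impdh2, of guanine nucleotide synthesis, by 1.61 in B cells. One-carbon genes rose in 11 of 20 cases and fell in 2 in B cells, and rose in 9 and fell in 1 of 20 in T cells. Over all genes, 1921 of 11276 rose and 2743 fell in B cells. In T cells 1441 of 11159 rose and 2606 fell. Phgdh and Psat1, the first steps of serine synthesis, rose by 1.91 and 3.02 in B and 2.08 and 2.73 in T cells. Phgdh stood at 169, 161 and 157 CPM in cycling B cells of ND and 135, 153 and 174 of MCDHFD, all above the 29.5 to 56.9 CPM of non-cycling ones. Mtr, methionine synthase, fell by 0.83 in B cells. Against cells of like UMI number, 6 of 15 nucleotide genes rose in B cells (Dtymk, Tyms, Dck, Rrm1, Tk1 and Rrm2), with Tyms, Rrm1 and Rrm2 also in the S phase list.

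Germinal centre genes were higher in cycling B cells, and a few cells held most of the S1pr2 UMIs. Of 13 measured of 15 listed, 10 were higher in cycling B cells (17.0% of all genes were), with a list median of 1.81 against -0.22 over all genes, among them Mybl1, Basp1, S1pr2, Fas, Nuggc, Mef2b, Rgs13, Eaf2 and Rassf6. Bcl6, the germinal centre repressor that naive B cells also make, was lower by 1.15, but not against cells of like UMI number (0.53, not called). Bcl6 was the only listed gene measured in that comparison, so the list could not be compared at like UMI number. Plxnb2 and Neil1 did not pass. With all cells of the gate and 10 per library, 9 of 14 were higher and 1 was lower. Rgs13, a brake on chemokine signals in germinal centre B cells, stood at 7.17, 57.4 and 4.91 CPM in cycling B cells of ND and 0, 68.0 and 0 of MCDHFD. The level was high in 1 library of each diet. In ND replicates 1 and 3 it lay below 10 CPM and below the level of non-cycling B cells (values below), so the rise rests on the high libraries. The counts of 0 in MCDHFD replicates 1 and 3 came from 5 and 4 cells. There 3 UMIs would be 21.3 and 43.5 CPM, so these counts cannot place the level against non-cycling cells. Its fitted difference from non-cycling B cells was 1.95 ± 0.55 (SE, log2, adjusted p = 0.0033 in edgeR's quasi-likelihood test).

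The Rgs13 level rests on 7 cells. An Rgs13 UMI was found in 7 cycling B cells (3, 2 and 1 in ND replicates 1 to 3, and 1 in MCDHFD replicate 2). One cell of ND replicate 2 held 23 of the 49 Rgs13 UMIs, with 17 of Mef2b and 6 of S1pr2, and 13 of the 15 listed genes. The cell of MCDHFD replicate 2 held 16 Rgs13 and 4 S1pr2 UMIs and 11 of the genes. The 7 cells held 12 of the 16 S1pr2 UMIs of the 97 cycling B cells. In the other 90 cells S1pr2 stood at 1.90 CPM, in 2 cells, against 0.375 in non-cycling B cells. Mybl1, a transcription factor of the same family as the late cycle activator, was less tied to them, with 26.2 CPM in the other 90 cells and a UMI in 18 of them, against 1.25 CPM in non-cycling B cells.

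Rgs13 among cycling B cells was not shown to differ by diet. The mean share with a UMI was 6.67% on ND and 3.03% on MCDHFD (n = 3 each, with overlap, exact permutation p = 0.4). Counted over the gate, 3 or more germinal centre genes were seen in 9 of 37, 4 of 29 and 7 of 20 cycling B cells of ND and in 1 of 6, 2 of 11 and 0 of 4 of MCDHFD, and the shares overlapped. In all B cells of the gate together Rgs13 did differ: 10.0, 11.4 and 8.60 CPM on ND against 0.778, 1.89 and 1.40 on MCDHFD, a log2 difference of -2.89 ± 0.26 (SE, adjusted p = 9.6e-05 in edgeR, with list form as a term). Most of that signal lay outside the gate, since non-cycling B cells held 7.85, 8.34 and 8.85 CPM on ND and 0.815, 1.05 and 1.45 on MCDHFD. Eaf2 and Nuggc also fell in all B cells, and the other 11 of 14 measured germinal centre genes did not pass. With diet as the only term no gene passed in all B cells, Rgs13 included. In bulk sums, fewer cells of a kind and less RNA per cell cannot be told apart.

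Cycling B cells had less of the follicular program. Of 13 genes of follicular and naive B cells, 12 fell (median -1.28 against -0.22 over all genes), and the remaining one did not pass. The count was also 12 of 13 with all cells of the gate and 10 per library. Cd55, which guards against complement, stood at 83.2, 126 and 85.1 CPM in cycling B cells of ND and 63.8, 102 and 102 of MCDHFD, and at 355 to 459 in non-cycling ones. Fcer2a, the low-affinity IgE receptor, fell by 1.95, Klf2, a factor of quiescence and homing, by 1.42 and Bank1, a receptor adaptor, by 1.34. The genes of B cell identity fell as well, 7 of 7, Ebf1 by 1.40 and Cd79b by 0.70. Against cells of like UMI number 3 of 13 follicular genes (Cr2, Bank1 and Cd38) and 2 of 7 identity genes (Ebf1 and Cd74) were lower.

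Of 11 immunoglobulin constant genes, 3 rose and 4 fell in cycling B cells, against 1921 higher and 2743 lower of all 11276 genes. Ighd, the IgD heavy chain of naive B cells, stood at 153, 246 and 206 CPM on ND and 156, 242 and 160 on MCDHFD, against 757 to 977 in non-cycling B cells, and fell by 2.26. At like UMI number its difference was -0.45 with adjusted p = 0.18 (edgeR). Of 7 constant genes measured in that comparison, 0 were higher and 0 lower. An Ighd UMI was still found in 87 of 107 cycling B cells (81.3%), pooled over libraries and with the myeloid-rich cells counted. Ighg2b, of the switched isotypes, rose by 2.25, Ighg3 by 1.62 and Ighg2c by 1.51. These share sequence with one another, and their counts could be split between copies.

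The genes that fell most in cycling B cells in every library belonged to no B cell list. Cacna1i, a T-type calcium channel, stood at 0 to 7.09 CPM in cycling and 43.4 to 62.3 in non-cycling B cells, and fell by 4.05. Slfn5, an interferon-induced gene, fell by 3.15, Neurl3 by 3.13, Rapgef4, an exchange factor driven by cyclic AMP, by 3.03 and Tsc22d3, a glucocorticoid-induced gene, by 2.80. For each of these 5 the cycling level was below the non-cycling one in every library, but this was a condition for naming them and is no further support.

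Cycling T cells held less of the naive program. All 11 naive genes fell in the gate without myeloid-rich cells, with a median of -2.67 against -0.32 over all genes, and 8 of 11 were still lower against cells of like UMI number. With all cells of the gate in the 3 ND libraries 11 of 11 fell too. Il7r, the receptor that keeps naive cells alive, stood at 87.4, 66.0 and 126 CPM in cycling T cells of ND and 86.8, 46.5 and 32.9 of MCDHFD, and at 419 to 768 in non-cycling ones. It fell by 3.33, Satb1 by 2.98, Lef1 by 2.77 and Tcf7 by 1.75. Igfbp4 was at 0 UMIs in all 47 cycling T cells and at 93.9 to 325 CPM in non-cycling ones. With 3 UMIs over each diet as the limit, it was at least 29.8-fold lower on ND and at least 26.0-fold lower on MCDHFD. Pik3ip1, an inhibitor of PI3 kinase, fell by 5.28, and Ly6c1 by 4.71.

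Some activation and effector genes rose, and the falls were near the share over all genes. Of 11 activation genes 5 rose and 2 fell, and of 14 effector genes 5 rose and 3 fell. Of all 11159 genes tested, 1441 rose and 2606 fell. With all cells of the gate in the 3 ND libraries 3 of 10 activation genes rose and 3 fell, and 4 of 15 effector genes rose and 2 fell. Pdcd1, which encodes the inhibitory receptor PD-1, rose by 2.17, Tigit by 2.32, Havcr2 by 2.36 and Icos, a helper cell costimulator, by 0.94. Cd69, an early activation and retention gene, fell by 1.52. Id2, a factor of effector cells, rose by 1.44 and in every library, to 136, 324 and 295 CPM on ND and 521, 478 and 513 on MCDHFD, against 68.4 to 151 in non-cycling T cells. Maf, a factor of helper and innate-like T cells, rose by 1.67, also in every library.

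Killer genes were uneven. Gzma stood at 0, 797 and 1059 CPM in cycling T cells of ND and 0, 279 and 0 of MCDHFD, so its rise of 1.54 came from 3 libraries. Gzmb rose by 2.70, while Prf1, the pore-forming protein, fell by 1.14 and Ccl5, a chemokine of killer cells, by 2.20. Against cells of like UMI number Gzmb did not pass (0.58 ± 1.37, SE, adjusted p = 0.85 in edgeR, and -1.54 with all cells of the gate in the 3 ND libraries), and the estimate for Ccl5 was 1.44, of the opposite sign. Foxp3 did not pass (-0.45 ± 0.39, adjusted p = 0.38, edgeR). Ccr6, a chemokine receptor of type 17 cells, rose by 2.57. Natural killer cell genes lay at 0 to 493 CPM in cycling and 42.2 to 106 in non-cycling T cells. The cycling level exceeded the non-cycling one in ND replicate 3 (493 against 105) and MCDHFD replicate 2 (120 against 88.3). The part of natural killer cells in the killer genes was not tested.

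Type I interferon genes were low in cycling T cells. Of 22 measured, 14 fell and 0 rose (median -1.36 against -0.32 over all genes), with Ifi213 lower by 4.52. In B cells 9 fell and 1 rose of 22. Over all genes, 2606 of 11159 fell in T cells and 2743 of 11276 in B cells. Ifi213 stood at 9.04, 0 and 6.02 CPM in cycling T cells of ND and at 0 in those of MCDHFD, and at 41.6 to 90.4 in non-cycling ones. Against cells of like UMI number 1 of 7 measured interferon genes was lower in T cells (Ifi213).

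**Figure D4:**
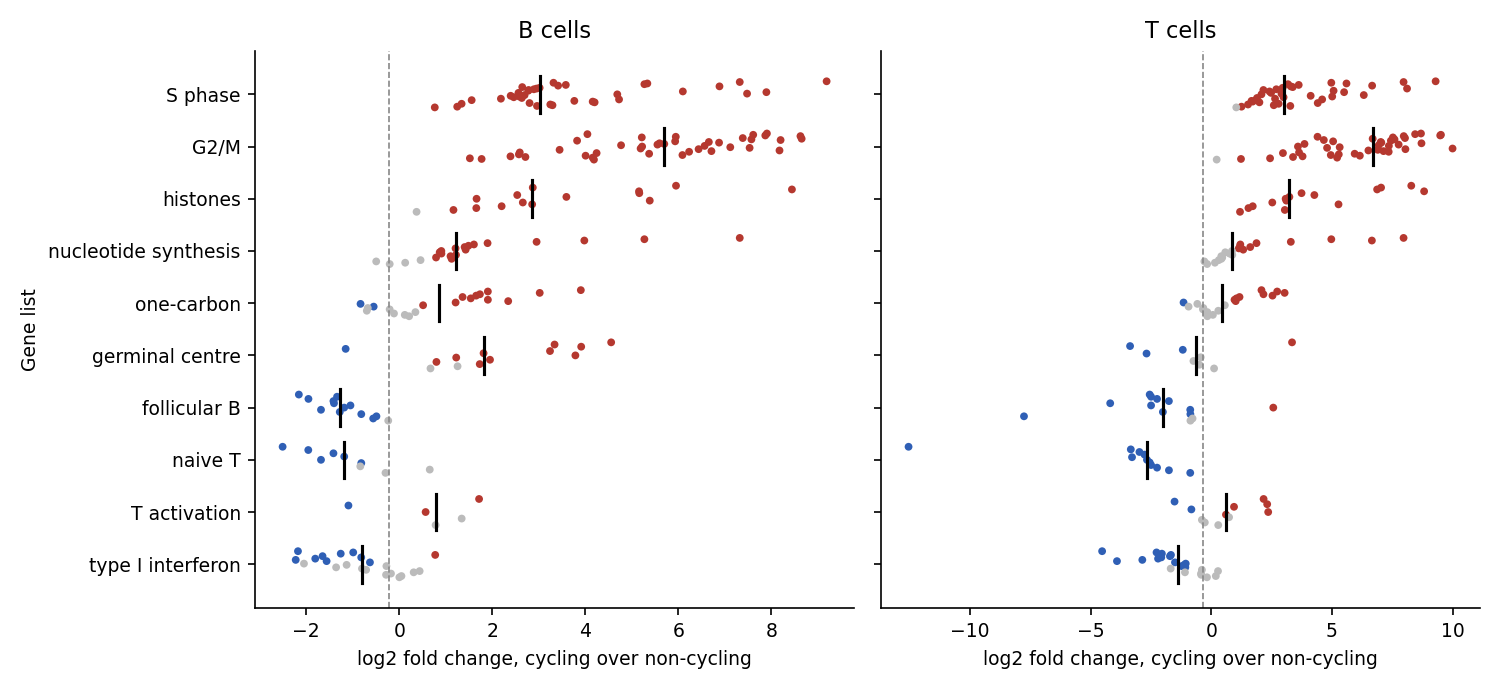
Log2 fold change of cycling over non-cycling cells (horizontal axis) for each measured gene of 10 lists (vertical axis), B cells left and T cells right, myeloid-rich cells left out, gate genes not drawn. Red and blue points passed adjusted p under 0.05, grey ones did not, black bars are list medians and the dashed line is the median of all genes; G2/M medians lie at 5.70 and 6.69, and naive T genes at -2.67 in T cells. The point at the far left of the naive T row is Igfbp4, with 0 UMIs in cycling cells, whose fitted value is no bound.

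The 2 lineages shared much of their cycling profile. Of genes tested in both, 1061 were higher in both, 59.4% of those higher in B and 81.2% of those higher in T cells. Likewise 1458 were lower in both, 58.1% and 60.4%. The test of the difference itself, T minus B, called 477 of 12531 genes (3.81%), 200 higher (1.6%) and 277 lower (2.21%), and with 10 cells per library 505 of 11808 (4.28%). Among germinal centre genes Basp1 (-6.59), Fas (-2.90) and S1pr2 (-3.65) had a lower difference in T than in B cells, and so had Lef1 (-2.34) and Ccnd2 (-1.84). Maf (3.82) and Ccr6 (3.00) had a higher one. Of 41 G2/M genes 8 had a larger difference in T cells and 2 a smaller one, among them Aurkb (3.16) and Cenpa (1.41) with a larger one, and 0 of 37 S phase genes passed.

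Few genes passed by diet in cycling B cells, and 4 of those lower on MCDHFD without the myeloid-rich cells belonged to the G2/M list. The planned comparison needed a count of at least 10 cycling cells per library, which left the 3 ND libraries and MCDHFD replicate 2, and called 55 of 7750 genes (0.71%), 11 higher and 44 lower on MCDHFD. With all 6 libraries and all cells it called 0 of 6117 in edgeR (425 at an unadjusted p under 0.05) and 5 in DESeq2. With all 6 libraries and without the myeloid-rich cells it called 12 of 5369 (0.224%), 3 higher (0.0559%) and 9 lower (0.168%), and with diet as the only term 0. The calls thus depended on the cells and the model used, and with all cells they ranged from 0 to 7 when a library was left out, 7 without MCDHFD replicate 1.

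Ube2c, a ubiquitin carrier of mitotic exit, stood at 360, 363 and 458 CPM in cycling B cells of ND and 99.3, 97.8 and 43.5 of MCDHFD, a log2 difference of -2.25 ± 0.26 (SE, adjusted p = 0.0013 in edgeR). Cenpf, a kinetochore protein, stood at 205, 140 and 236 against 78.0, 46.8 and 58.1, and Cenpe, a kinetochore motor, at 152, 149 and 263 against 49.6, 55.3 and 14.5. Ccnb1, the mitotic cyclin, stood at 77.4, 82.7 and 108 against 14.2, 17.0 and 0. The MCDHFD levels rest on few UMIs, since 3 UMIs are 21.3, 12.8 and 43.5 CPM in its replicates 1 to 3. Ccnb1 lay under this in replicates 1 and 3 and Cenpe in replicate 3, where Ube2c was at 3 UMIs. In each of these 4 the diets did not overlap, but this was a condition for part of the named genes and is no further support. Of 40 measured G2/M genes 4 were called lower and 0 had a positive estimate (median -0.85 against 0.02 over all genes), while 22 of 36 S phase genes had a positive one (median 0.17, 0 called). Pclaf, of S phase, overlapped between diets (-0.36, adjusted p = 0.81).

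Summed over its genes, the G2/M list made up 7817, 6870 and 8544 CPM of cycling B cells on ND and 5184, 3618 and 4557 on MCDHFD, without overlap, and the S phase list 4384, 5051 and 4346 against 5602, 3792 and 5820, with overlap. Counted by cell, more G2/M than S phase UMIs were held by 18 of 34, 12 of 23 and 9 of 20 cycling B cells on ND and by 2 of 5, 3 of 11 and 3 of 4 on MCDHFD, so the shares of the diets overlapped. In T cells such cells were 23 of 34 on ND and 7 of 13 on MCDHFD. The G2/M list of cycling T cells stood at 9113, 9803 and 11371 CPM on ND and 26792, 8030 and 8654 on MCDHFD. The single cell of MCDHFD replicate 1 lay above all ND values, and the other 2 MCDHFD libraries lay below them.

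The cycling B cells of the diets also differed in how far they lay inside the gate. At least 2 UMIs of both gate genes were held by 29 of 37, 20 of 29 and 18 of 20 cycling B cells of the ND libraries, and by 5 of 6, 5 of 11 and 2 of 4 of the MCDHFD libraries, with the myeloid-rich cells counted. Without these, the median Mki67 count per cycling B cell was 5, 6 and 12.5 on ND and 9, 2 and 3.5 on MCDHFD, with overlap. In cells with at least 2 UMIs of both gate genes, 1 of 5322 genes passed by diet in edgeR (340 at an unadjusted p under 0.05). The part of this difference in the lower G2/M genes was not tested further.

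**Figure D5:**
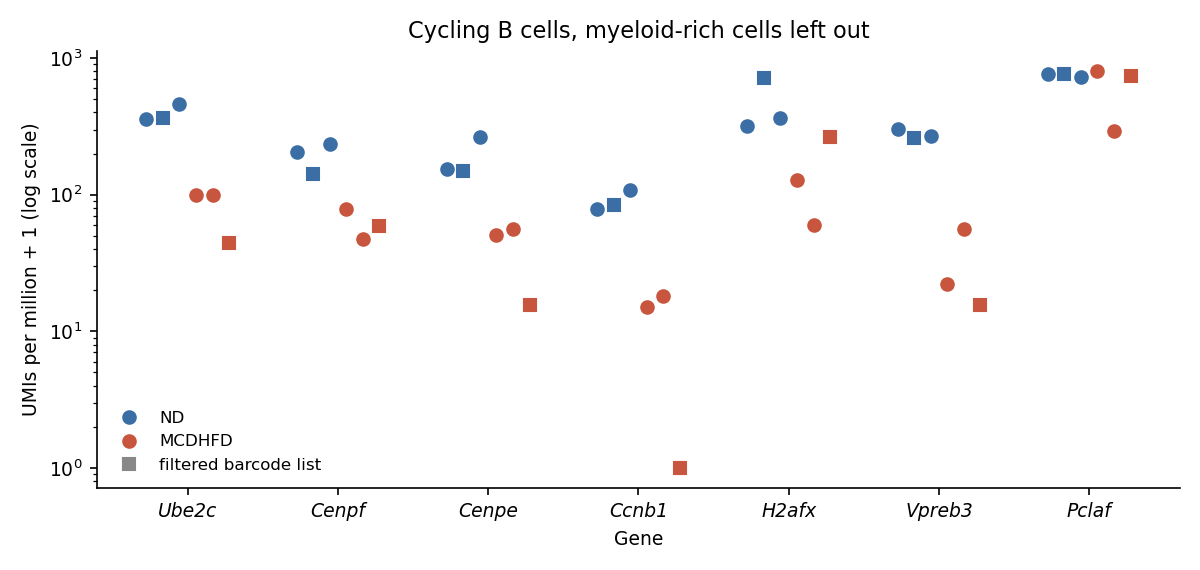
CPM plus 1 (vertical log axis) of 7 genes in cycling B cells of each library, myeloid-rich cells left out. Circles are libraries with unfiltered and squares with filtered barcode lists. ND lies above MCDHFD without overlap for Ube2c, Cenpf, Cenpe, Ccnb1, H2afx and Vpreb3, and the diets overlap for Pclaf. No overlap was a condition for part of the named genes.

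Vpreb3, a pre-B cell receptor partner kept in immature B cells, stood at 304, 259 and 270 CPM in cycling B cells on ND and 21.3, 55.3 and 14.5 on MCDHFD (-2.98 ± 0.33, SE). The MCDHFD level was 3 UMIs in replicate 1 and under 3 UMIs in replicate 3. Non-cycling B cells held 276, 306 and 237 against 174, 168 and 239 CPM of Vpreb3, and the test of the difference between cycling and non-cycling cells gave -2.47 (adjusted p = 1.2e-07, edgeR). H2afx, a histone variant that marks broken DNA, passed this test too (-1.55), as did Cenpe (-2.24). Rgs13 passed in the other direction (3.55), with its MCDHFD level in cycling B cells from 1 cell of replicate 2. In all, 44 of 11276 genes passed it (0.39%), 10 higher (0.0887%) and 34 lower (0.302%), and 13 of 11552 (0.113%) with all cells, and 24 of 12773 (0.188%) with all cells and 10 per library, which became 37, 86 and 124 without ND replicates 1, 2 and 3. Bmp2k was higher on MCDHFD by 1.25, at 298, 302 and 247 against 102, 122 and 131 CPM.

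In cycling T cells no gene passed by diet in edgeR, 0 of 3333 without myeloid-rich cells and 0 of 3665 with them, where 99 and 116 passed 0.05 unadjusted, and DESeq2 called 0 of the latter. With the myeloid-rich cells, MCDHFD replicate 1 held 2 cycling T cells, and without that library 62 genes passed, so the count of 0 with all cells rests on it. Leaving out a library was not run without the myeloid-rich cells. On simulated counts the fit with all cells recovered 2% of changes of log2 1 and 34% of log2 2, so its count of 0 says little. The 5 smallest p-values belonged to Cxcr4, a homing receptor for bone marrow and dark zones, at 12.1, 12.0 and 12.0 CPM on ND and 217, 126 and 72.4 on MCDHFD (log2 3.21, adjusted p = 0.63), to Cd8b1, Cd8a and the class I gene H2-Q7, with lower estimates on MCDHFD, and to Dapl1, with a higher one. Of 13 cycling T cells on MCDHFD, 1 was counted as CD8. The test of cycling against non-cycling cells by diet called 22 of 11159 genes (0.197%, and 31 of 11432, 0.271%, with the myeloid-rich cells, a count that was 14 without ND replicate 2, 15 without MCDHFD replicate 3, 128 without MCDHFD replicate 1 and 0 in DESeq2), with 11 higher and 11 lower (0.0986% each), among them Cd8a (-4.78), Cd8b1 (-4.01) and Dapl1 (4.11), a gene of naive T cells at 12.1, 0 and 0 CPM on ND and 0, 93.0 and 165 on MCDHFD.

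In sums over all cells of a lineage, cycling ones included, cycle genes were lower on MCDHFD. In B cells 9.37% of 13642 genes passed (7.67% with the myeloid-rich cells), 5.85% lower and 3.52% higher on MCDHFD, and 32 of 41 G2/M genes were lower (median -1.38 against 0.01), with 0 higher. Ube2c stood at 12.7 to 18.9 CPM in the ND libraries and at no more than 2.05 in those of MCDHFD. In T cells 5.02% of 12520 genes passed (5.13% with the myeloid-rich cells), 3.24% lower and 1.77% higher, and 20 of 40 G2/M genes were lower (median -1.03 against 0.01). Hmgb2, a chromatin protein of dividing cells, stood at 351, 319 and 321 against 147, 157 and 192 CPM in T cells. Of 10 regulatory T cell genes 7 were lower in all T cells, Foxp3 by 0.81. These sums used list form as a term. With diet as the only term 0 genes passed in B cells (717 at an unadjusted p under 0.05, edgeR) and 1 in T cells. With all cells of the gate, leaving out a library gave 270 (MCDHFD replicate 2) to 2342 (ND replicate 2) calls in B cells and 167 (MCDHFD replicate 1) to 685 (ND replicate 2) in T cells. Interferon genes were lower on MCDHFD as well, 17 of 23 in B and 13 of 23 in T cells.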

How the data were processed

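Splenocytes from 3 ND and 3 MCDHFD libraries were read as UMI counts, which the authors deposited raw (each value was checked to be whole). According to the submitters' processing notes, Cell Ranger 9.1.0, Seurat 4.3.0 and mm10 were used, and the headers name other Cell Ranger versions. The annotation is not given in the sources used here. No read was realigned.

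The cell filter (1000 UMIs, 400 genes, mitochondrial share up to 10%) left 31457 barcodes. The cells and gene lists were chosen with earlier results of these data known. UMIs were summed per library, lineage and state, and fitted with edgeR 4.0.16 (limma 3.58.1, R 4.3.3) by the quasi-likelihood test with TMM scaling, library as a term within libraries and list form as a term for diet, with Benjamini-Hochberg adjustment over all genes tested. The planned fits asked for 10 cells per sum. This left 4 libraries for B and 3 for T cells and no diet fit for T cells, so fits without a minimum and without cells of 50 or more neutrophil-lineage UMIs were added after the data were seen, and the gene values come from them. DESeq2 1.42.0 was an alternative. The fits were tested on simulated counts with 200 changed genes. With no minimum of cells, the diet fit in cycling B cells recovered 9% of changes of log2 1 and 67% of log2 2. In cycling T cells it recovered 2% and 34%. Shares were compared by exact permutation over libraries, with Wilson 95% intervals for single libraries. Total UMIs per library, the depth, were 21259837 to 62238012. Doublets were called with Scrublet in scanpy 1.11.5 (Python 3.11.15, SciPy 1.17.1), which predicted 75, 0 and 56 cells in ND and 241, 200 and 0 in MCDHFD replicates 1 to 3. It found none in the 2 filtered lists, so it has not worked there, and doublets were left in.

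Named genes were, in each direction, up to 10 with the largest fold change among those that passed, with mean log2 CPM of at least 4 and 1 direction in every library tested (for diet, no overlap), plus up to 6 members of each list with the smallest p, every germinal centre gene, and Trnp1, Syt6, Fkbp5 and Hdac9 in T cells. Receptor, immunoglobulin and gate genes were left out of the first part. Some genes are not reported here.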

Additional observations from a re-analysis of the deposited data

Results flagged for a closer look

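The difference between cycling and non-cycling cells was not the same in T and B cells for 505 genes with 10 cells per library, 504 with no minimum and 477 without myeloid-rich cells, by the test of the difference in edgeR. Among them were Basp1 (log2 -6.59), Fas (-2.90), S1pr2 (-3.65) and Lef1 (-2.34), lower in T cells, and Maf (3.82) and Ccr6 (3.00), higher. Basp1 had 1 UMI in cycling T cells, so its size depends on the fit.

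The effect of diet differed between cycling and non-cycling B cells for 24, 13 and 44 genes under the same 3 choices, among them Vpreb3 (-2.47), Cenpe (-2.24), H2afx (-1.55) and Rgs13 (3.55). In T cells it differed for 31 genes with no minimum and 22 without myeloid-rich cells, among them Cd8a (-4.78), Cd8b1 (-4.01) and Dapl1 (4.11). These T cell values rest on 34 ND and 13 MCDHFD cells.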

How the results depend on the processing

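Shares of cycling cells fell on MCDHFD under every setting run. Leaving out a library gave differences of -0.978 to -0.495 points in B and -1.52 to -1.16 in T cells, -6.67 to -2.12 for Rgs13 and -33.8 to -0.455 for CD8 among cycling cells, and 0.111 to 0.334 points for T minus B cells. Replicate numbers were not taken to pair the samples. Same-numbered libraries correlated at 0.70, -0.77 and -0.74 in B cells and 0.55, -0.70 and -0.73 in T cells. ND replicate 2 and MCDHFD replicate 3 had filtered lists, so each negative pair set a filtered against an unfiltered list. These correlations therefore cannot decide whether the numbers pair the samples. With the replicate block the shares differed by -0.771 and -1.33 (exact permutation p = 0.25, the smallest for 3 pairs) and the Rgs13 share by -3.64, and 75 genes differed by diet in cycling B cells with no minimum of cells and 0 in T cells, 1195 in all B and 941 in all T cells. Only the estimate for Rgs13 in cycling B cells changed sign with the block, to -3.65.

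Against cells of like UMI number, 505 genes (486 without myeloid-rich cells) differed in cycling B and 271 (362) in cycling T cells, with fewer genes tested. There Bcl6 had 0.31 and 0.53 in B cells, Gzmb -1.54 and Ccl5 0.22 and 1.44 in T cells. Neil1 had -0.20 without ND replicate 2, Foxp3 -0.43 to 0.35 when a library was left out (0.35 without ND replicate 2) and Hdac9 0.12 with 2 UMIs of both gate genes. Leaving out a library gave 2904 to 4236 genes in B cells (3415 to 4395 without myeloid-rich cells), 2345 to 3581 (3217 to 3711) in T cells and 284 to 505 (465 to 539) for T minus B. Diet in cycling B cells called 36 genes with DESeq2, 354 with no filter on low counts, 0 with diet alone and 55 to 74 without a library. With no minimum of cells it called 0, and 12 without myeloid-rich cells, 5 with DESeq2, 0 with upper-quartile scaling, 92 with no filter, 1 with 2 UMIs of both gate genes, 0 without doublets, with diet alone or in unfiltered lists, and 0 to 7 without a library. In T cells it called 62 with no filter and 0 to 62 without a library. The diet effect in cycling minus non-cycling B cells gave 14 with DESeq2, 50 with upper-quartile scaling, 64 with no filter, 13 with no minimum, 44 also without myeloid-rich cells and 24 to 124 without a library. In T cells it gave 0 with DESeq2, 5 with upper-quartile scaling, 47 with 2 UMIs and 14 to 128 without a library (15 without MCDHFD replicate 3). All B cells gave 2010 with no filter, 0 with diet alone, 2543 in unfiltered lists and 270 to 2342 without a library, and all T cells 1 with diet alone and 167 to 685 without a library. Except where fewer genes or samples entered, the cause was not tested. Of 3032 values of single genes, 2493 kept direction and side of the threshold, 502 lost the call, 28 gained it and 9 changed sign.

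With 10 cells per library, diet in cycling T cells, alone or against non-cycling T cells, could not be fitted under any setting. Nor could diet in cycling B cells with 2 UMIs, with the block or without ND replicate 1, ND replicate 3 or MCDHFD replicate 2, nor the cycling minus non-cycling effect in B cells with 2 UMIs or without MCDHFD replicate 2. B cells with and without Rgs13 were not compared across genes, as no library held 10 such cycling cells. The number of cells limits precision: 13 cycling T cells on MCDHFD, 1 of them in replicate 1.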
